A study of Mus musculus with 6 samples.

Results

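A group of 9 genes of extracellular proteolysis was followed in sorted lung cancer cells: the tissue inhibitors of metalloproteinases Timp1, Timp2 and Timp3, the plasminogen activators Plau and Plat, the urokinase receptor Plaur, and the serpins Serpine2, Serpinb2 and Serpinf1. They were chosen by name, as the rows whose gene symbol was 1 of these 9, out of the 18182 genes listed in the files. The cells were LLC-RFP cells, the Lewis lung carcinoma line of the mouse carrying red fluorescent protein, which were injected under the skin of wild type C57BL/6 mice either alone (LLC alone, 3 libraries) or together with bone marrow-derived mesenchymal stem cells (LLC with BMSCs, 3 libraries). Red fluorescent cells were collected from the primary tumours by flow cytometry and their RNA was sequenced, to ask how co-injected BMSCs alter gene expression in the cancer cells. The source label of the co-injected libraries names mesenchymal stem cells beside the carcinoma cells. LLC-RFP is 1 cell line. The methods name female mice 6 weeks old for the study's allografts of luciferase-labelled LLC cells and do not repeat this for the mice sequenced. The sources used here do not say how many mice stand behind a library or whether mice were pooled, so the p-values measure the spread between these libraries, which may be technical. Level is given as FPKM, fragments scaled to transcript length and library size, and tests used the deposited estimated counts in edgeR, with a call at a Benjamini-Hochberg adjusted p below 0.05.

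Plasminogen is a circulating zymogen that urokinase (Plau) and tissue-type activator (Plat) cut to plasmin, a protease that degrades fibrin and matrix proteins and can activate metalloproteinase precursors. Plaur holds urokinase at the cell surface, and serpins trap the activators in inactive complexes. TIMPs bind the active site of matrix metalloproteinases, so the balance of activators, receptor and both kinds of inhibitor is a classical subject in studies of tumour invasion.

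The libraries held 33476347 to 46189113 counted fragments. LLC alone replicate 3 stood apart from the others: against the mean of all libraries, its log2 values had a median of 0.31 in the shortest 20% of genes and -0.37 in the longest 20%. LLC alone replicates 1 and 2, and LLC with BMSCs replicates 2 and 3, were closer to each other than other replicate pairs, with a median chi-square of 1.96 and 1.69 times that of counting noise against 5.04 to 14.2 times for the other pairs. The epithelial markers Epcam (9 and 2 counts summed over LLC alone and over LLC with BMSCs), Cdh1 (7 and 8), Krt7 (1 and 4) and Krt19 (0 and 6) were near 0 in the cells labelled carcinoma, while Krt8 averaged 95.3 and 110.02 FPKM. Krt18, the remaining gene of that list, had 14 and 115 summed counts and rose by a log2 difference of 2.91 (edgeR adjusted p = 2.2e-04). It entered the test only through LLC with BMSCs, so the filter on low counts favoured a call in this direction. All 54 deposited estimated counts of the 9 genes were whole numbers.

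Plau rose about 6-fold in LLC with BMSCs and Timp2 and Serpinf1 fell, while Timp1 and Plaur, both abundant, did not pass the test. Serpinb2, Serpine2 and Timp3 went from a handful of counts in LLC alone to clearly detected levels. Plat rose slightly, at the edge of the threshold. Of the 13353 genes tested, 31.5% were called higher and 31.3% lower, so a call by itself was common in these data. Serpinb2, Serpine2 and Timp3 entered the test only through their counts in LLC with BMSCs. The filter on low counts therefore favoured a difference in this direction, and their calls are no independent support for it. Among the 6 genes with at least 10 counts in every library, 2 were called higher (Plau and Plat) and 2 lower (Timp2 and Serpinf1), beside 30.3% and 31.7% of all such genes. The FPKM values of the groups did not overlap for 4 of these 6 genes, against 70.3% of all such genes.

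**Figure D1:**
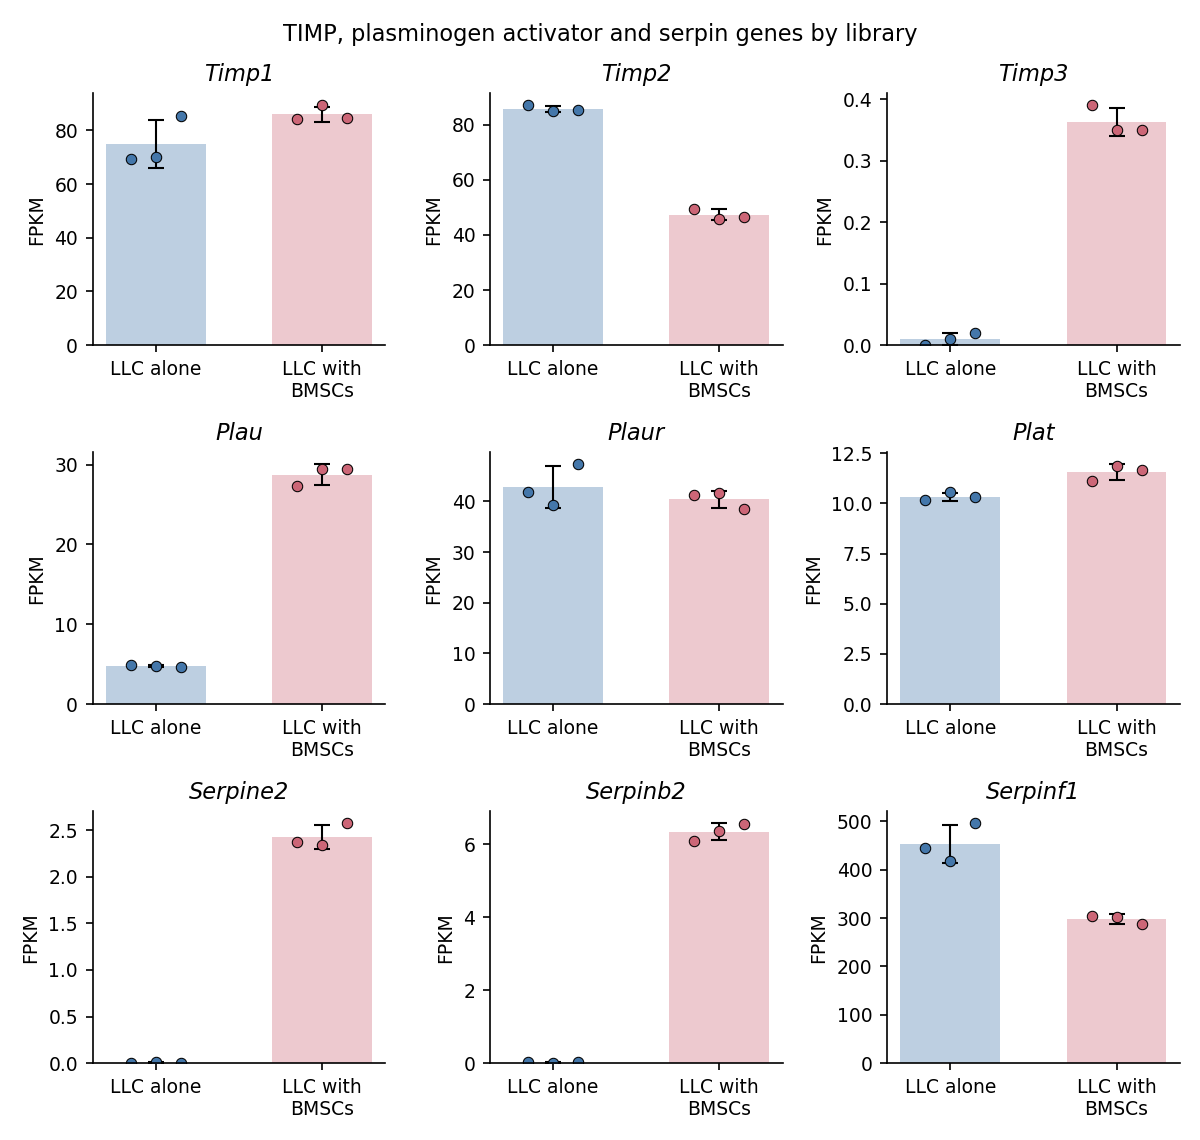
FPKM of each of the 9 genes in 3 libraries of LLC alone (blue) and 3 of LLC with BMSCs (red). Points are libraries, bars are group means and error bars are SD, on axes that start at 0 and differ in scale between genes. Plau rose from 4.77 to 28.8 FPKM and Timp2 fell from 85.7 to 47.3 FPKM, while the points of Timp1 and of Plaur overlap between groups.

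The upstream sequences are shown for the 3 genes that were nearly silent in LLC alone, Serpinb2, Serpine2 and Timp3, and for Plaur, an abundant gene that was not called. The bases are those before the RefSeq transcription start on GRCm38.p6, on the gene's strand and 5′ to 3′, cut where a GENCODE exon of the gene begins. Capitals mark the motifs found in the 250 bases before the start, searched on both strands. The AP-1 motif was spelled TGANTCA. The GC box was spelled GGGCGG and may overlap another GC box. The TATA box was spelled TATAAA. Searched as well, the GAS element that binds STAT proteins, was spelled TTCNNNGAA. The windows were chr1:107511173-107511422 (+) for Serpinb2, chr1:79858697-79858915 (-) for Serpine2, chr10:86300162-86300371 (+) for Timp3 and chr7:24462233-24462482 (+) for Plaur.
Serpinb2: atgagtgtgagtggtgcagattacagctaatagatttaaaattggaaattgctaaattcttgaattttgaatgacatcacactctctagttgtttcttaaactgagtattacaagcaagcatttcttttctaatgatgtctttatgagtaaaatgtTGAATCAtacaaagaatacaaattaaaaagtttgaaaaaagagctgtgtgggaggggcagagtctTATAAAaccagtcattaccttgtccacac
Serpine2: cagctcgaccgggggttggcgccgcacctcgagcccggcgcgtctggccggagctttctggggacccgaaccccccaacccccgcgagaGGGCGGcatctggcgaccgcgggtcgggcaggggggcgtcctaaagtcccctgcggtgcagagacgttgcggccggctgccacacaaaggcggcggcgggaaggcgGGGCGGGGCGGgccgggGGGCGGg
Timp3: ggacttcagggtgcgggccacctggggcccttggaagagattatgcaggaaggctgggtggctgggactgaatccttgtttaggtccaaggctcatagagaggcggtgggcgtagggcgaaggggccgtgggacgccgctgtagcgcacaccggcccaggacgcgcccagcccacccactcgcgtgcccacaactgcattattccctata
Plaur: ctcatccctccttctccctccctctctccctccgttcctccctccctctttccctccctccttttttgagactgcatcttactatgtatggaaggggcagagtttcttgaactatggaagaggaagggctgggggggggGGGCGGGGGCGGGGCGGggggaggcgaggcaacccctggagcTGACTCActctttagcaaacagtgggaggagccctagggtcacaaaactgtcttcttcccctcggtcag

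The 250 bases before the Serpinb2 start held an AP-1 motif, beginning 94 bases before it, and a TATA box beginning 29 bases before it, in a window of 32.4% G and C. A second Serpinb2 start in RefSeq, a short way downstream, shares most of this window, and its own 250 bases also held a GAS motif. Serpine2 had 6 GC boxes in 250 bases of 78.8% G and C, 4 of them in the stretch printed, and no TATA box. Its window lies inside the GENCODE gene, whose outermost start is at chr1:79861180 (-), and so not upstream of the whole gene. The single GC box of Timp3 lies past the printed stretch, which shows none of the 4 motifs. Plaur held an AP-1 motif beginning 69 bases before its start and 3 GC boxes that overlap or adjoin. Over 32851 RefSeq windows of the same length, the AP-1 motif was in 6.75%, the GAS motif in 7.02%, the GC box in 32.7% and the TATA box in 12.4%. These matches describe the letters and show no binding. Of the 9 genes, 7 had an entry, and Timp1 and Timp2 had 1 GC box each and Serpinf1 none of the 4 motifs; Plau and Plat had no entry.

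The TIMPs moved apart. Timp2, which inhibits metalloproteinases and also takes part in the activation of pro-MMP2 at the cell surface, read 86.96, 84.78 and 85.3 FPKM in LLC alone and 49.57, 45.9 and 46.38 FPKM in LLC with BMSCs. All 3 libraries of LLC with BMSCs were below all 3 of LLC alone, and the replicates lay close together in both groups. Timp2 (NCBI gene 21858) fell by 0.88 on the log2 scale (SE 0.058, edgeR adjusted p = 1.2e-05), that is 1.84-fold.

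Timp1 (gene 21857), a broad secreted inhibitor that is inducible by cytokines, read 69.42, 70.22 and 85.45 FPKM in LLC alone and 84.36, 89.31 and 84.54 FPKM in LLC with BMSCs. LLC alone replicate 3 was as high as the co-injected libraries, and the groups overlapped. The log2 difference was 0.18 (SE 0.092, edgeR adjusted p = 0.118). Without LLC alone replicate 3 the difference was 0.29 and was called higher (adjusted p = 6.3e-04), and with each library's trend over gene length removed it was 0.51 (adjusted p = 1.3e-05). Timp1 has transcripts of 825 to 905 bases, and the trend over length moved with the groups, since the shortest 20% of genes lay between 0.037 and 0.31 (log2) in the LLC alone libraries and between -0.19 and -0.091 in those with BMSCs.

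Timp1 was divided among 3 transcripts. The transcript of 905 bases read 33.31, 28.67 and 39.59 FPKM in LLC alone and 41.23, 45.46 and 42.84 FPKM with BMSCs, and that of 902 bases 31.52, 36.92 and 41.35 against 41.44, 42.17 and 40.94 FPKM. The short transcript of 825 bases went the other way, from 4.6, 4.63 and 4.51 FPKM to 1.69, 1.67 and 0.76 FPKM, with no overlap between groups. These transcripts share most of their sequence, and the split is an estimate by the authors' pipeline.

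Timp3, a TIMP that binds to the matrix, had 0, 1 and 4 counts in LLC alone and 81, 71 and 70 counts in LLC with BMSCs, or at most 0.02 FPKM against 0.35 to 0.39 FPKM. It was thus the lowest of the 9 genes in LLC with BMSCs, although every co-injected library was above every library of LLC alone. The ratio of its summed counts, scaled by library size, was 41.6 (exact 95% interval 17.5 to 129, counting error only). The fitted log2 difference was 5.28 (SE 0.44, edgeR adjusted p = 3.7e-05). Its size depends on which LLC alone libraries are kept, being 6.74 without LLC alone replicate 3 and 4.66 without replicate 1. Timp3 (gene 21859) lies inside Syn3 on the opposite strand, with exons that overlap. The sources used here do not state strand in counting, so reads of Timp3 and Syn3 cannot be told apart there; Syn3 averaged 0.207 and 0.193 FPKM.

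Summed over the 3 TIMPs, FPKM was 156.38, 155.01 and 170.77 in LLC alone and 134.32, 135.56 and 131.27 in LLC with BMSCs, a ratio of 0.832. Timp1 and Timp2 made up nearly all of it, and the ratio of Timp1 to Timp2 went from 0.798, 0.828 and 1.002 to 1.70, 1.95 and 1.82. Timp4, the remaining member of the family, had 1 count in LLC alone and 0 in LLC with BMSCs. An exact two-sided permutation test of the sum gave p = 0.1, the smallest that 3 against 3 libraries allow. As a sum of counts scaled to library size alone (CPM), which weights the longer Timp2 transcript more, the log2 difference was -0.63 in place of -0.27.

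Plau, the gene of urokinase, had the largest change among the 6 of these genes with at least 10 counts in every library. Its FPKM was 4.9, 4.78 and 4.63 in LLC alone and 27.3, 29.48 and 29.48 in LLC with BMSCs. Every co-injected library lay far above every library of LLC alone, with little spread in either group. The log2 difference of Plau (gene 18792) was 2.57 (SE 0.060, edgeR adjusted p = 1.0e-07), a 5.94-fold rise, and stayed between 2.37 and 2.63 under 18 alternatives. By mean FPKM among the 13353 genes tested, Plau moved from rank 8295 to rank 2989.

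Plat (gene 18791), the tissue-type activator, read 10.16, 10.54 and 10.29 FPKM in LLC alone and 11.13, 11.86 and 11.67 FPKM in LLC with BMSCs. The co-injected libraries were all higher, by a small step. The log2 difference was 0.14 (SE 0.054, edgeR adjusted p = 0.0494). It was no longer called under 9 of 18 alternatives, with adjusted p up to 0.290, among them leaving out LLC alone replicate 1 (0.15) or 2 (0.0991) or LLC with BMSCs replicate 2 (0.171) or 3 (0.140).

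In LLC alone Plat exceeded Plau, and in LLC with BMSCs Plau exceeded Plat. The ratio of Plau to Plat in FPKM was 0.482, 0.454 and 0.45 in LLC alone and 2.45, 2.49 and 2.53 in LLC with BMSCs. The FPKM of both activators summed to 15.06, 15.32 and 14.92 in LLC alone and to 38.43, 41.34 and 41.15 in LLC with BMSCs, a 2.67-fold difference (exact permutation p = 0.1, the smallest possible).

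Plaur (gene 18793), the cell surface receptor of urokinase, read 41.79, 39.19 and 47.27 FPKM in LLC alone and 41.17, 41.57 and 38.52 FPKM in LLC with BMSCs. The groups overlapped and LLC alone replicate 3 was again the highest. The log2 difference was -0.10 (SE 0.083, edgeR adjusted p = 0.331) and 0.093 with the length trend removed, neither of them called. The receptor thus read 8.53, 8.20 and 10.2 times the FPKM of Plau in LLC alone, and 1.51, 1.41 and 1.31 times in LLC with BMSCs.

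**Figure D2:**
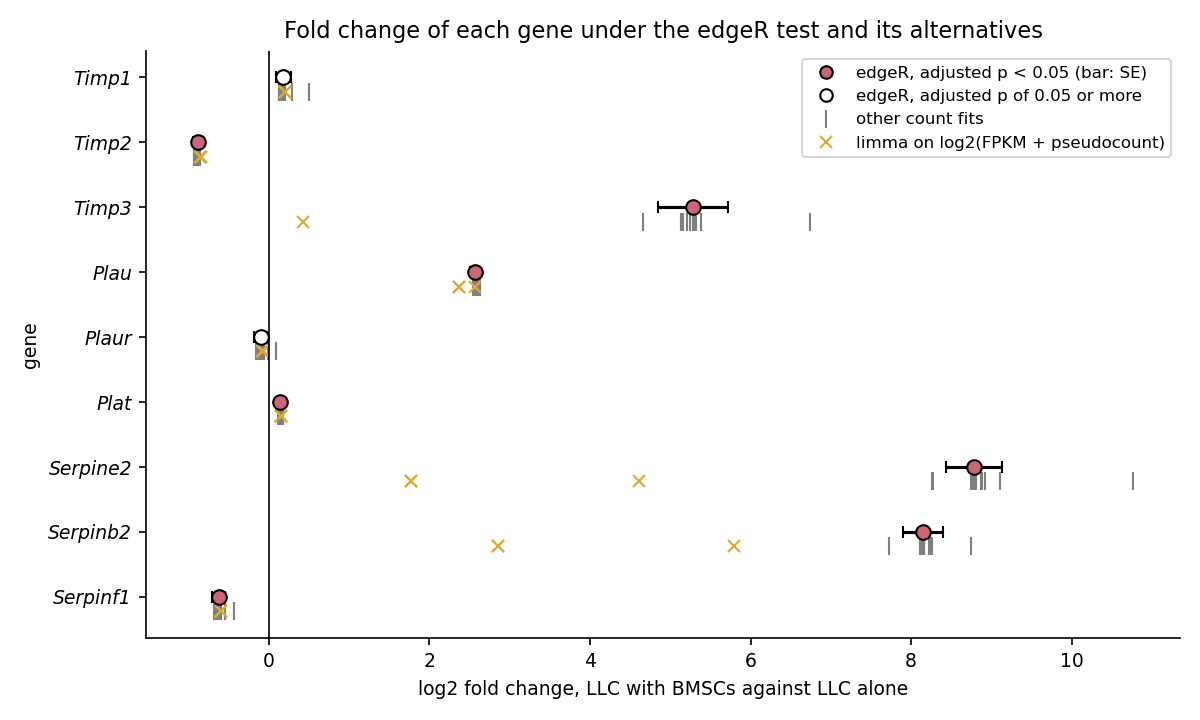
Log2 fold change of each gene, LLC with BMSCs against LLC alone, from edgeR (circles with SE, filled where the adjusted p was below 0.05), from the other count fits (grey ticks) and from limma on log2(FPKM + pseudocount) (crosses). Plau kept 2.37 to 2.63 throughout, while the size for Serpine2, Serpinb2 and Timp3 depends on the prior count or pseudocount; Timp1 reached 0.51 with the length trend removed.

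Of the serpins, Serpinb2 (gene 18788), the urokinase inhibitor PAI-2, had 3, 0 and 2 counts in LLC alone and 523, 540 and 552 counts in LLC with BMSCs, or 0.03, 0 and 0.02 FPKM against 6.09, 6.38 and 6.55 FPKM. The groups were far apart and the co-injected libraries nearly equal. The ratio of summed counts scaled by library size was 302 (exact 95% interval 129 to 933, counting error only), beside a fitted log2 difference of 8.14 (SE 0.25, edgeR adjusted p = 3.6e-07), which was 8.74 without LLC alone replicate 1. Both its transcripts were detected with BMSCs, the one of 1988 bases at 3.53, 4.93 and 4.55 FPKM and the one of 2007 bases at 2.56, 1.44 and 2.0 FPKM. Serpinb10, which shares exon sequence with Serpinb2 on the same strand, averaged 0.0033 and 0.013 FPKM.

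Serpine2 (gene 20720), protease nexin-1, an inhibitor of thrombin, urokinase and tissue-type activator, had 0, 1 and 0 counts in LLC alone and 211, 206 and 225 counts in LLC with BMSCs. With BMSCs this was 2.37, 2.34 and 2.57 FPKM, again with little spread. The ratio of summed counts was 601 with an exact 95% interval of 107 to 23775, so that its size is known only to within orders of magnitude. The fitted log2 difference was 8.78 (SE 0.35, edgeR adjusted p = 1.1e-06), and 10.8 without LLC alone replicate 2, the only one with a count. Of the tested genes with a symbol, Gbp7, an interferon-inducible GTPase, Parp14 and the neutrophil calprotectin subunit S100a8 had the most similar profile. The measure was the root mean square difference of centred log2 CPM over the 6 libraries (0.129, 0.182 and 0.194). Gbp7 rose from 47 to 4303 summed counts, Parp14 from 151 to 14913 and S100a8 from 3 to 856. Their fitted log2 differences, 6.41, 6.52 and 7.89, were below that of Serpine2, and the measure damps low counts through its prior count.

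Serpinf1 (gene 20317), pigment epithelium-derived factor, is a serpin that does not inhibit proteases and is known as an inhibitor of angiogenesis. It was by far the most abundant of the 9 genes, at 444.87, 417.92 and 495.38 FPKM in LLC alone and 305.2, 302.73 and 286.67 FPKM in LLC with BMSCs. All co-injected libraries were below all libraries of LLC alone, of which replicate 3 was the highest. Serpinf1 fell by 0.62 on the log2 scale (SE 0.077, edgeR adjusted p = 2.9e-04) and by 0.43 in the fit that moved it most, with the length trend removed, still called. Its rank by mean FPKM went from 168 to 224.

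Because Serpinf1 dominated, the sum over the 3 serpins fell from 444.9, 417.93 and 495.4 to 313.66, 311.45 and 295.79 FPKM, a ratio of 0.678 (exact permutation p = 0.1, the smallest possible), while Serpine2 and Serpinb2 together went from at most 0.03 to between 8.46 and 9.12 FPKM.

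In LLC alone the order of levels in FPKM was Serpinf1, Timp2, Timp1, Plaur, Plat and Plau, followed by Serpinb2, Timp3 and Serpine2 at or below 0.03. Timp2 and Timp1 overlapped there, as did the 3 lowest. In LLC with BMSCs the order was Serpinf1, Timp1, Timp2, Plaur, Plau, Plat, Serpinb2, Serpine2 and Timp3, and no neighbours overlapped.

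The other genes of the pathway were described by counts from 4 lists. Of 8 genes for plasminogen and the proteins that hold it, 6 were tested, 3 were called higher and 2 lower, and the median log2 difference was 0.00, beside 0.01 for all tested genes. Among the 5 with at least 10 counts in every library, 2 were higher and 2 lower and the median was -0.19. Plg itself had 2 counts in LLC alone and 1 in LLC with BMSCs, so the zymogen was not detected as RNA in these cells. The plasminogen-binding pair Anxa2 and S100a10 was abundant and lower with BMSCs: Anxa2 averaged 816 and 600.1 FPKM (log2 difference -0.47, SE 0.070, edgeR adjusted p = 7.7e-04), and S100a10 671 and 525 FPKM (-0.38, SE 0.13, adjusted p = 0.0389). The call of S100a10 was lost with the length trend removed (adjusted p = 0.961) and without LLC alone replicate 2 (0.05004) or 3 (0.0709) or LLC with BMSCs replicate 1 (0.104) or 3 (0.0663). Itgam, an integrin subunit of myeloid cells, rose from 5 to 712 summed counts, all 5 of them in LLC alone replicate 3, and Itgb3, a subunit of the vitronectin receptor, from 45 to 712.

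Of 14 other inhibitors, 6 were tested, 2 were called higher and 3 lower, with a median log2 difference of -0.20. Among the 3 with at least 10 counts in every library, 1 was higher and 1 lower and the median was 0.09, so its sign turned. The lower one, Serpinb6a, was by far the most abundant of the list and was named after its values were seen. It averaged 167.8 and 120.8 FPKM (log2 difference -0.50, SE 0.077, edgeR adjusted p = 8.7e-04). The summed level of the list was 228 to 262 CPM in LLC alone and 165 to 180 CPM in LLC with BMSCs. Serping1, the C1 inhibitor, rose by a log2 difference of 1.44 and Reck, a membrane-anchored inhibitor of metalloproteinases, by 1.35 at only 23 and 63 summed counts. The call of Reck (adjusted p = 0.0392) was lost when any 1 library other than LLC alone replicate 1 was left out (adjusted p 0.0582 to 0.134). Spint2, a Kunitz-type inhibitor of serine proteases, fell by 2.84 on the log2 scale and Serpinb8 fell by 1.59, both below 1 FPKM on average in both groups. Spint2 went from 117 to 17 summed counts and Serpinb8 from 54 to 19. Both entered the test only through LLC alone, and Reck only through LLC with BMSCs. The filter on low counts therefore favoured these 3 calls in the direction seen.

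Of 8 receptors that clear protease complexes and their companions, 6 were called higher and 1 lower, with a median of 0.88. Among the 6 with at least 10 counts in every library, 4 were higher and 1 lower, beside 30.3% and 31.7% of all such genes. Their median was 0.71, beside 0.00 for all such genes. Mrc2, the collagen receptor Endo180, rose by a log2 difference of 1.32 and Sorl1 by 1.24, both below 1 FPKM. Vldlr, which takes up urokinase-inhibitor complexes, rose from 4 to 299 summed counts. Sorl1 and Vldlr each had fewer than 10 counts in at least 1 LLC alone library. The filter on low counts therefore favoured these calls in the direction seen. Lrp1, the main endocytic receptor of such complexes, read 16.14, 17.14 and 7.88 FPKM in LLC alone and 32.01, 26.88 and 26.82 FPKM with BMSCs (log2 difference 1.04, SE 0.26, edgeR adjusted p = 0.0091), with LLC alone replicate 3 well below the other libraries. Without that library the difference was 0.77, and with the length trend removed 0.66, both still called.

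Of 19 matrix metalloproteinases, the enzymes that TIMPs inhibit, 17 were listed and 13 tested, of which 10 were called higher and 2 lower, with a median log2 difference of 2.95. Among the 10 with at least 10 counts in every library, 7 were higher and 2 lower, with a median of 2.63. The gelatinases Mmp2 and Mmp9 averaged 1.71 and 0.147 FPKM in LLC alone and 8.62 and 5.39 FPKM in LLC with BMSCs (log2 differences 2.32, SE 0.075, and 5.12, SE 0.14; edgeR adjusted p = 4.5e-07 and 2.4e-07). Mmp14, the membrane-type enzyme that activates pro-MMP2 together with Timp2, averaged 36.8 and 47.3 FPKM (0.34, SE 0.062, adjusted p = 0.0019).

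Mmp13, a collagenase, rose from 0.763 to 23.4 FPKM (log2 difference 4.91). Mmp12, the macrophage elastase, had 1 count in LLC alone and 987 in LLC with BMSCs, a ratio of 924 (exact 95% interval 165 to 36531). Mmp8, the neutrophil collagenase, had no count in LLC alone and 310 with BMSCs, at least 31.5-fold higher against 3 counts in each library of LLC alone. Mmp1b rose by 4.62, a value that is uncertain because its near-identical neighbour Mmp1a can share reads with it. Mmp3, stromelysin-1, which rose from 31.1 to 510.2 FPKM (log2 difference 4.02), and Mmp11, which fell by 1.35, were named after their values were seen.

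**Figure D3:**
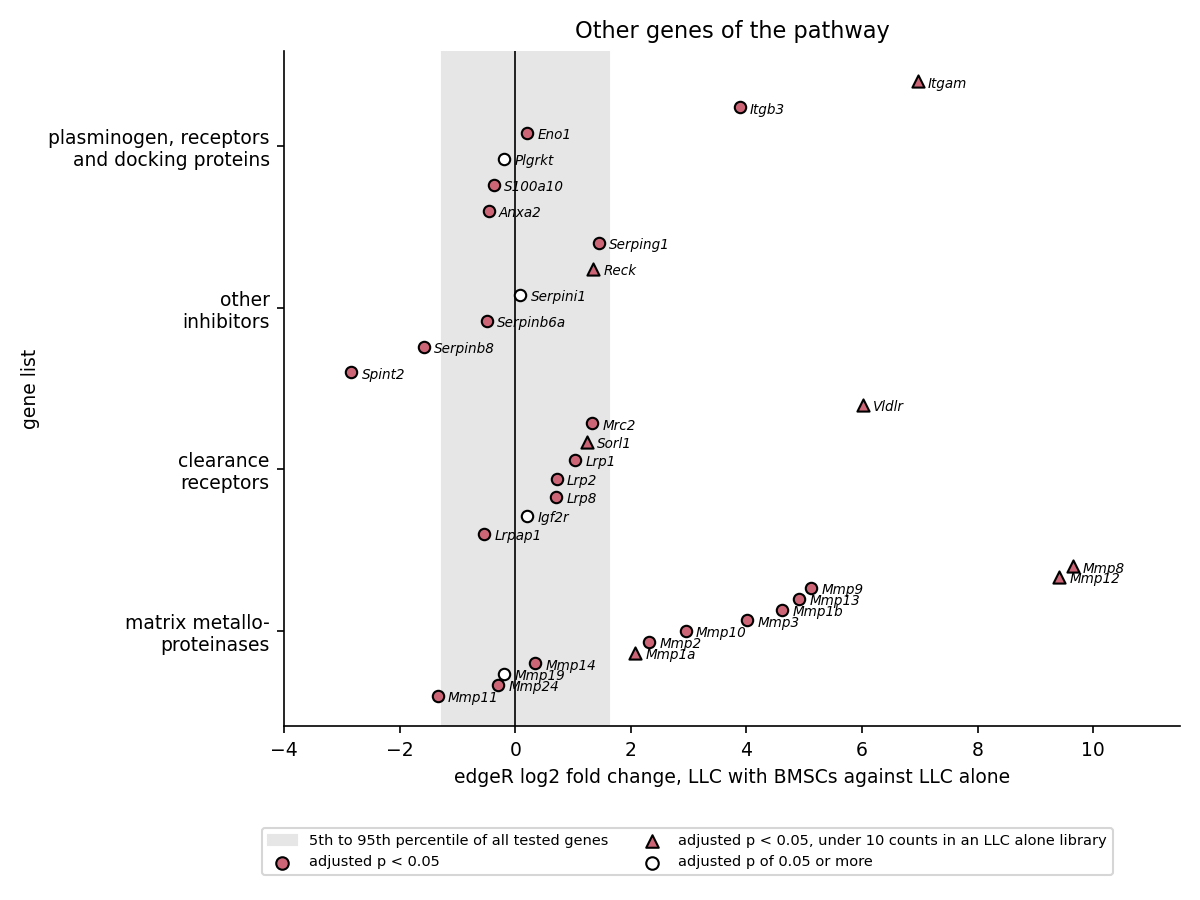
EdgeR log2 fold change of the tested genes in the 4 lists, each point a gene, filled where the adjusted p was below 0.05 and drawn as a triangle where an LLC alone library had fewer than 10 counts. The grey band spans the 5th to 95th percentile of all 13353 tested genes. Of 13 tested metalloproteinases 10 lie to the right of 0 and are filled, against 2 of 6 other inhibitors. These counts include genes that entered the test through 1 group only. With at least 10 counts in every library they are 7 of 10 and 1 of 3, beside 30.3% of all such genes. Spint2 and Serpinb8, which entered only through LLC alone, are drawn as circles.

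Markers of other cell types also moved with the groups. Of 13 genes typical of stromal cells and BMSCs, 10 were tested and all 10 were higher. Of these, 7 had at least 10 counts in every library. Among all genes with such counts, 30.3% were called higher. The summed level of the list was 366 to 431 CPM in LLC alone and 793 to 845 CPM in LLC with BMSCs. Col3a1 made up most of this sum, at a mean of 228 CPM in LLC alone and 546 CPM with BMSCs. Col1a1 went from 10 to 1562 summed counts and Dcn from 24 to 1524, or means of 11.7 and 11.4 CPM with BMSCs. Col1a1 and Dcn each had fewer than 10 counts in at least 1 LLC alone library, so the filter favoured their calls. Thy1 (0 and 3 counts) and Postn (5 and 11 counts) were near 0 in both groups. Of 12 macrophage genes, 8 of 9 tested were higher and Cd68 was lower. Of these 9, 6 entered the test only through LLC with BMSCs, and of the remaining 3 genes 2 were higher and 1 lower. Their sum went from between 9.87 and 12.0 CPM to between 24.2 and 24.6 CPM, with Adgre1 going from 0 to 202 counts and C1qa at 0 and 7. Of 8 neutrophil genes, all 5 tested were higher, but 4 of them entered the test only through LLC with BMSCs. The sum of the list went from between 0.436 and 0.720 CPM to between 17.7 and 20.3 CPM, with Ly6g at 8 and 5 counts. Most of the sum with BMSCs came from 2 genes, S100a8 and S100a9, at means of 6.42 and 10.3 CPM. The next highest, Cxcr2, averaged 0.787 CPM there. Endothelial genes summed to 1.05 to 1.26 against 1.33 to 1.75 CPM, and neither of the 2 tested of 6 was called. Lymphocyte genes summed to 0.3 to 0.373 against 0.225 to 0.336 CPM, and none had enough counts to be tested.

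Beside these sums, Serpinb2 reached 11.7 to 12.5 CPM in LLC with BMSCs, Serpine2 4.63 to 5.09 CPM and Timp3 1.58 to 1.81 CPM, from at most 0.0877 CPM for any of them in LLC alone. Plau went from between 10.7 and 11.2 CPM to between 62.0 and 66.4 CPM. In a sorted bulk sample, more cells of another type and more RNA per cancer cell cannot be told apart, and the part of other cell types in these differences was not tested.

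**Figure D4:**
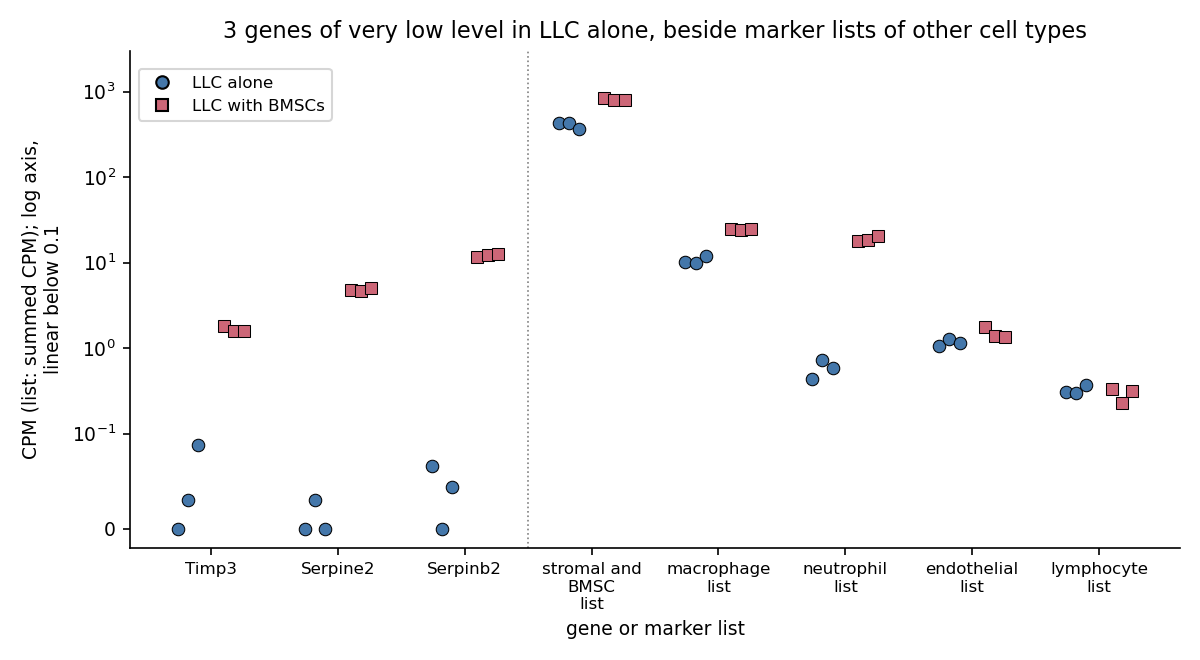
CPM of Timp3, Serpine2 and Serpinb2 (left) and summed CPM of 5 marker lists of other cell types (right) in each library of LLC alone (circles) and LLC with BMSCs (squares), on an axis that is logarithmic above 0.1 and linear below. The 3 genes and the neutrophil list went from below 1 CPM to between 1.58 and 20.3 CPM, whereas endothelial and lymphocyte lists stayed below 2 CPM. Most of the neutrophil sum with BMSCs was S100a8 and S100a9.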

How the data were processed

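RNA of sorted LLC-RFP cells was sequenced in 6 libraries, 3 per group, and the groups were read from the labels. Unnormalized estimated counts of genes and transcripts were deposited, together with gene lengths in bases. The authors also deposited FPKM values, which divide by transcript length and library total. The submitters' processing notes name HISAT, StringTie, Cufflinks and GATK and the build mm8; their roles and versions are not given in the sources used here. The paper describes sequencing on a BGI instrument and the labels name Illumina protocols. Of the 18182 genes, 1151 had no symbol.

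Estimated counts were rounded and tested with edgeR 4.0.16 (R 4.3.3) over all 6 libraries, with TMM, the default filter on low counts (13353 genes kept), the quasi-likelihood test and Benjamini-Hochberg adjustment over all tested genes. The biological coefficient of variation was 9.92%. SE was obtained from the log2 fold change and the square root of edgeR's F statistic. Genes with at least 10 counts in every library were described separately. Sums by role were compared by an exact permutation test, which cannot give a two-sided p below 0.1. Ratios of summed counts have exact binomial 95% intervals, and a group at 0 was set to 3 counts per library; both cover counting error only. On data simulated with 198 changed genes among 13173, edgeR recovered 180 with 11 false calls. The simulated libraries were independent, with no trend over gene length, no close pairs and far fewer changed genes than were called here. These rates therefore do not carry over to the data.

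The 9 genes, the gene lists and the tests were chosen with earlier results of these data known. All 9 genes were named, and of the other lists Timp4, Plg, Mmp2, Mmp9 and Mmp14 and up to 4 other called genes with the largest absolute log2 fold change; further names are marked in the text. Some genes of these lists are not reported here and were left out of the lists' counts. For the called gene of the 9 with the largest change and a mean of at least 1 FPKM, the 3 nearest genes with a symbol were named. Alternatives were DESeq2 1.42.0, library size without TMM, upper-quartile scaling, other filters, limma 3.58.1 on log2(FPKM + 1) and log2(FPKM + 0.1), the replicate number as a block, removal of each library's trend over gene length, the close library pairs summed, and each library left out. Apart from a setting with no filter, limma kept genes of at least 1 FPKM in at least 3 libraries. Upstream sequences came from a RefSeq table of GRCm38.p6, another build than that named for the counts, and gene overlaps from GENCODE M21.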

Additional observations from a re-analysis of the deposited data

How the results depend on the processing

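Timp2, Serpinf1 and Plau kept their direction and their call under all 18 alternatives. The filter on low counts favoured the calls of Timp3, Serpine2 and Serpinb2, so that these were kept is no measure of stability. Plaur was not called under any of 18. Timp1 was called higher under 3 of 18 (the length trend removed with and without the block, and without LLC alone replicate 3), and Plat lost its call under 9 of 18; the cause was not tested. With at least 10 counts required in every library, the number of the 9 genes called higher was 2 in place of 5, because Timp3, Serpine2 and Serpinb2 are no longer tested. As summed CPM the log2 difference was -0.63 for the TIMPs and 1.34 for the activators (-0.27 and 1.42 as FPKM). Of the plasminogen list, limma on log2(FPKM + 1) and log2(FPKM + 0.1) called 1 higher in place of 3, and 1 was called lower in place of 2 under these, under limma with no filter, with the length trend removed (with and without the block) and with close pairs summed; leaving out 1 library gave 1 to 2. Of the other inhibitors 1 was higher in place of 2, and 1 lower in place of 3. This held with at least 10 counts in every library and under both filtered limma settings. These limma settings also called 2 clearance receptors higher in place of 6. They tested only genes of at least 1 FPKM in at least 3 libraries. Reck, Spint2, Serpinb8 and the receptors that lost their call did not reach this and were not tested there. Limma with no filter called 5 receptors higher. Leaving out 1 library gave 1 to 2 higher inhibitors. Of the metalloproteinases 1 was lower in place of 2 under limma with no filter and with close pairs summed, and 1 to 2 with a library left out. The gene Plgrkt reversed from -0.19, not called, to 0.12 with the length trend removed (adjusted p = 0.0485). Over all genes, leaving out 1 library gave 3617 to 4736 higher and 3581 to 4539 lower. Same-numbered libraries did not deviate together (correlations 0.076, -0.11 and 0.057, against -0.16 to 0.15 for differently numbered ones). With 3 libraries per group this cannot exclude shared handling by number. With the replicate number as a block, 4161 genes were higher and 4058 lower, and of the 9 genes Plat alone lost its call (adjusted p = 0.0962).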
